A study of Mus musculus with 12 samples.

Results

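RNA levels were examined for 31 genes of the PIWI-interacting RNA (piRNA) pathway and of nuage, taken from the 55385 genes of a single table by their gene names. The table holds 12 libraries in 6 groups of 2, all from spermatogonia sorted from mouse testes. Undifferentiated spermatogonia (Aundiff, E-Cadherin+ CD9high KIT-) and early differentiating spermatogonia (Adiff, E-Cadherin+ CD9medium KIT+) came from untreated WT C57BL/6 males at 2 to 3 mo. Aundiff alone were sorted from males on a C57BL/6 X FVB/NJ background at 2 mo, which were either PRC1ctrl (Ring1-/-; Rnf2 F/+; Ddx4-Cre) or PRC1cKO (Ring1-/-; Rnf2 F/-; Ddx4-Cre). RING1 and RNF2 are the catalytic subunits of Polycomb repressive complex 1 (PRC1), which ubiquitinates histone H2A, so every mouse of both PRC1 groups lacked RING1. A second set of both genotypes received win18446, which blocks retinoic acid synthesis, from 1 mo of age in about 30 daily subcutaneous injections of 50 μl DMSO at 40 μg/μl, and was sampled 24 h after the last one. The Cre transgene is driven by the promoter of *Ddx4*, which is itself one of the genes examined, and was present in PRC1ctrl and PRC1cKO alike. Each library pooled sorted cells, and the number of mice in a pool was not given. The comparisons addressed which of the genes differ between Aundiff and Adiff, and which differ in Aundiff when RNF2 is deleted in germ cells in the absence of RING1.

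Germ cells of the testis load short piRNAs onto PIWI proteins, which then recognise transposon RNA. Long precursor transcripts are cut and trimmed at the mitochondrial surface and in nuage, the electron-dense perinuclear granules that DEAD-box helicases and Tudor domain proteins build. In fetal prospermatogonia a nuclear PIWI protein carries the guide to transposon loci and DNA methylation follows. In pachytene spermatocytes a separate and very abundant piRNA population is made from long intergenic clusters. Tudor proteins bind PIWI proteins through methylated arginines.

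The unit is TPM, the part of a library's RNA that belongs to a gene after division by transcript length. Read numbers cannot be recovered from it, which leaves sequencing depth and counting error unknown, and every error given comes from the 2 libraries of a group. WT libraries and those after win18446 were made from 100000 to 150000 cells with a stranded kit (TruSeq), while the 4 libraries of untreated PRC1 mice were made from about 7000 cells with a low-input method (Smart-Seq2). Mitochondrial genes held 12.5% to 16.6% of TPM in the low-input libraries and 4.28% to 6.69% in the others. *Ring1* stood at 0.03 to 0.25 TPM in the 8 libraries of PRC1 mice and at 8.61 to 19.9 TPM in WT. *Rnf2* was not lower under the label PRC1cKO, at 56.7 and 67.5 TPM against 28.3 and 47.6 TPM in PRC1ctrl at 2 mo, and at 86.2 and 93.1 TPM against 78.1 and 67.2 TPM after win18446. RNA of a floxed allele can still be counted outside the deleted exons, so this value does not check the labels, and directions are given for the libraries as labelled. The 11 markers of undifferentiated spermatogonia summed to 1062 and 1202 TPM in WT Aundiff and 301 and 341 TPM in WT Adiff, and the 6 markers of differentiating spermatogonia to 231 and 242 TPM against 1851 and 1910 TPM.

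Among 31 genes, 23 had an entry in a RefSeq promoter table of GRCm38.p6 that holds 250 bases before and 50 after each transcription start. Promoters are shown for *Piwil4* and *Gtsf1*, both of which fell in WT Adiff, for *Pld6*, which rose there, for *Tdrd9*, and for *Ddx4*, whose promoter also drives the Cre transgene. They lie at chr9:14740623-14740922, chr15:103430378-103430677, chr11:59787608-59787907, chr12:111971309-111971608 and chr13:112652261-112652560, with *Tdrd9* on the plus strand and the others on the minus strand. Each is written 5′ to 3′ on the strand of its gene, and capitals mark every match on either strand to TCCCGC (an E2F core), CACGTG (an E-box), CCAAT or CAGTTG (a MYB core).
Piwil4: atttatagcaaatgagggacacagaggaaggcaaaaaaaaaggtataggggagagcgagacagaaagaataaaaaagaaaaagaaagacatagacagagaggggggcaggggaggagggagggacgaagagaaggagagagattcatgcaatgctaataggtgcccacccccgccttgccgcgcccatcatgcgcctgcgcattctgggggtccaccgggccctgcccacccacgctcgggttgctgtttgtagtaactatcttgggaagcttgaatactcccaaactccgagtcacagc
Gtsf1: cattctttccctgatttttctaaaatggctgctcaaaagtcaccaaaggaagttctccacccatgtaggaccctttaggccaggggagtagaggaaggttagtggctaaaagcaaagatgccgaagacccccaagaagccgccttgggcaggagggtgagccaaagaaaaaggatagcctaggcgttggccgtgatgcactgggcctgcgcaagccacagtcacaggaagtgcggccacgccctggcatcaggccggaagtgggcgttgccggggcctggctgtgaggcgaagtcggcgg
Pld6: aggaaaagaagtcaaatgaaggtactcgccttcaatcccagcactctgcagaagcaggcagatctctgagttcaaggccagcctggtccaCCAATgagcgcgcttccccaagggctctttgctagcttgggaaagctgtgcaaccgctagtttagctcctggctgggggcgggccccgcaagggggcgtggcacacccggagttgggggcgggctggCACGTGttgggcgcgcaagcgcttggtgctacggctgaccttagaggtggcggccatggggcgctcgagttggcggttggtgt
Tdrd9: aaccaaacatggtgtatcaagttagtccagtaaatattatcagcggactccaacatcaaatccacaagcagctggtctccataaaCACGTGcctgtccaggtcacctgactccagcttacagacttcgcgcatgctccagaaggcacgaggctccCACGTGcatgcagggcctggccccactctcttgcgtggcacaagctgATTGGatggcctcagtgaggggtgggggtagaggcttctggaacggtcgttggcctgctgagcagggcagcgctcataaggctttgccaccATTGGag
Ddx4: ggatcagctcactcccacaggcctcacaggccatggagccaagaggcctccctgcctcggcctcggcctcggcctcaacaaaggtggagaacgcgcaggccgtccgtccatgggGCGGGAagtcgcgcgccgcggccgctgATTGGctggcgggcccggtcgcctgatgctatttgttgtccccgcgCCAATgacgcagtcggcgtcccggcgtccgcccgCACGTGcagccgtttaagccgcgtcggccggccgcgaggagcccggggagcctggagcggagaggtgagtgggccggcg
The E-box CACGTG occurred in 10 of 23 promoters (43.5%), beside 7.15% of 32851 RefSeq promoters of the same length. These 10 include *Piwil1*, whose nearest promoter entry lay 33722 bases from its annotated gene start. The entries of *Henmt1* and *Tdrd5* lay 498 and 316 bases away, and all others at most 165. TCCCGC was found in 8 of 23 (34.8%, beside 20%), CCAAT in 10 of 23 (43.5%, beside 37.4%) and CAGTTG in 3 of 23 (13%, beside 13.7%). The promoters of *Piwil4* and *Gtsf1* held none of the 4 motifs, and neither did those of *Asz1*, *Henmt1* and *Tdrd12*, which were not called in WT. *Tdrd5*, which also fell in WT Adiff, held 1 TCCCGC. *Pld6* held 1 CACGTG and 1 CCAAT, *Tdrd9* held 2 of each, and *Ddx4* held 1 CACGTG, 2 CCAAT and 1 TCCCGC. A match describes the letters only, and no binding was measured here.

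In WT Aundiff all 31 genes stood at 1 TPM or more in both libraries, with a median of 85.2 and 84.7 TPM, while the median over all genes at 1 TPM or more was 13.7 and 13.9 TPM. In WT Adiff 30 of 31 did so, and their median was 68.6 and 64.6 TPM. Among the PIWI proteins, *Piwil2* (MILI, the cytoplasmic PIWI of prospermatogonia and spermatogonia) stood at 325 and 368 TPM in WT Aundiff. *Piwil4* (MIWI2, the nuclear PIWI of prospermatogonia) was at 22.6 and 25.1 TPM, and *Piwil1* (MIWI, the PIWI of pachytene spermatocytes and round spermatids) at 9.85 and 9.75 TPM. The libraries thus ordered *Piwil2* above *Piwil4* above *Piwil1*, with gaps larger than the difference between the 2 libraries. The nuage protein gene *Mael* was at 728 and 654 TPM and *Fkbp6*, a cofactor of the HSP90 chaperone that helps load PIWI proteins, at 619 and 680 TPM, and these overlapped at the top of the order. At the bottom were *Tdrd6*, a chromatoid body protein of spermatids, at 3.75 and 3.62 TPM, and *Mybl1* (A-MYB, the activator of pachytene piRNA clusters) at 1.43 and 1.12 TPM.

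**Figure D1:**
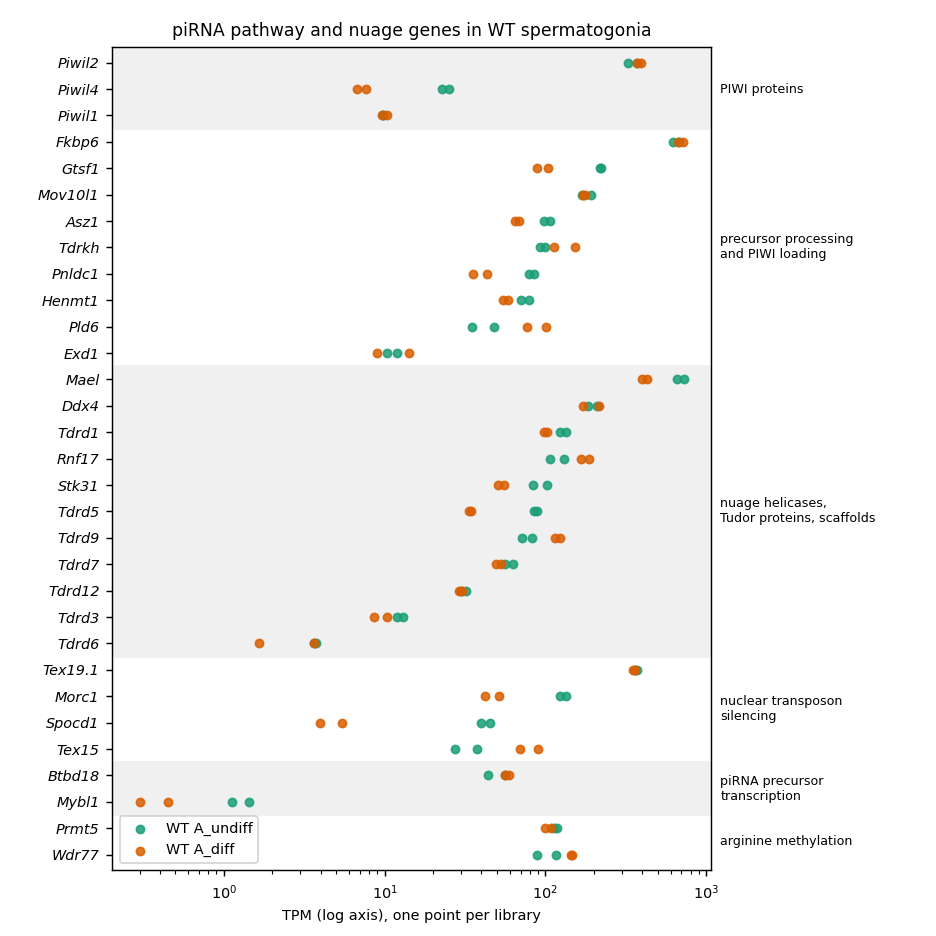
TPM of the 31 genes (log axis) in WT Aundiff and WT Adiff, with 1 point per library and genes grouped by role and ordered by their mean in WT Aundiff. *Spocd1*, *Piwil4*, *Morc1*, *Tdrd5*, *Gtsf1* and *Pnldc1* lie clearly lower in Adiff, *Tex15* and *Pld6* higher, and *Piwil2*, *Fkbp6*, *Mov10l1*, *Ddx4* and *Tex19.1* lie close together.

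Of 31 genes, 6 fell and 2 rose from WT Aundiff to WT Adiff, where 9.24% of all genes fell and 11.1% rose. A gene was called if its log2 fold change exceeded 1 in size and its adjusted p was under 0.05 (limma on log2(TPM + 1), two-sided, over 15470 genes). The 6 that fell were *Spocd1*, *Piwil4*, *Morc1*, *Tdrd5*, *Gtsf1* and *Pnldc1*, and the 2 that rose were *Tex15* and *Pld6*, and the other 23 were not called. The median log2 fold change was −0.15 over the 31 genes and 0.15 over all genes tested. In bulk RNA, fewer cells that express a gene and less RNA per cell cannot be told apart.

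Of the 4 genes of nuclear transposon silencing, 2 fell and 1 rose. *Spocd1* (chr4:129929249-129957115), which encodes a nuclear partner of MIWI2 needed for de novo methylation of transposons, was at 39.7 and 45.0 TPM in Aundiff and 3.98 and 5.44 TPM in Adiff. Both Aundiff libraries stood far above both Adiff libraries, and the log2 fold change was −2.93 (SE 0.21, limma adjusted p = 0.000866), the lowest of the 31. *Morc1* (chr16:48431237-48630900), a GHKL ATPase that represses transposons in male germ cells, was at 135 and 123 TPM and then 51.5 and 42.0 TPM, again without overlap (log2 fold change −1.45, SE 0.15, limma adjusted p = 0.00188). *Tex15* (chr8:33516738-33585582), whose product is required for the same methylation, moved the other way. It was at 37.7 and 27.6 TPM in Aundiff and 90.0 and 69.5 TPM in Adiff, so the groups did not overlap (log2 fold change 1.27, SE 0.21, limma adjusted p = 0.00616). *Tex19.1*, a mammalian gene that restrains retrotransposons in germ cells, was at 359 and 373 TPM and at 349 and 360 TPM, and its groups overlapped.

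Among the 3 PIWI genes, only *Piwil4* (chr9:14696230-14740733) passed the test, at 22.6 and 25.1 TPM in Aundiff and 6.77 and 7.65 TPM in Adiff. Its groups did not overlap, and the log2 fold change was −1.60 (SE 0.18, limma adjusted p = 0.00227). *Piwil2* was at 369 and 394 TPM in Adiff and *Piwil1* at 10.4 and 9.61 TPM, and neither passed.

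Of the 9 genes for precursor processing and PIWI loading, 2 fell and 1 rose. *Gtsf1* (chr15:103402405-103430470), a zinc finger protein that PIWI proteins need for target cleavage, was at 219 and 221 TPM in Aundiff and 104 and 88.5 TPM in Adiff, with no overlap (log2 fold change −1.19, SE 0.13, limma adjusted p = 0.00209). *Pnldc1* (chr17:12888729-12910230), the exonuclease that trims the 3′ ends of piRNAs, was at 79.6 and 84.7 TPM and then 35.7 and 43.1 TPM. These groups did not overlap either, and the log2 fold change was −1.05 (SE 0.15, limma adjusted p = 0.00439), but it was −0.91 without Adiff replicate 1. *Pld6* (chr11:59783897-59787645), the mitochondrial endonuclease that cuts precursors, was at 35.2 and 48.1 TPM and then 76.8 and 101 TPM, again without overlap (log2 fold change 1.08, SE 0.21, limma adjusted p = 0.0104). Its log2 fold change was 0.86 without Aundiff replicate 1, 0.88 without Adiff replicate 2 and 0.91 after median-of-ratios scaling, each under the threshold of 1. In a fit over all 12 libraries, *Pnldc1* and *Pld6* both lost their calls (limma adjusted p = 0.162 and 0.0963). *Asz1*, a scaffold on the mitochondrial surface, had a log2 fold change of −0.61 (SE 0.13, limma adjusted p = 0.0138), which is smaller than 1. *Fkbp6*, *Mov10l1* (the helicase that feeds precursors to processing), *Tdrkh* (a mitochondrial Tudor protein), *Henmt1* (the methyltransferase of piRNA 3′ ends) and *Exd1* (a partner of TDRD12) did not pass. Exons of *Oaz3*, a spermatid gene, overlap 36.7% of the exonic bases of *Tdrkh* on the opposite strand. For *Wdr77*, other genes overlap 28.7% of the exonic bases on the same strand and 6.96% on the opposite one, so its reads and theirs may have been shared.

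Of the 11 nuage helicases, Tudor proteins and scaffolds, 1 fell and none rose by both thresholds. At any size of change, limma gave 9 of the 31 genes below 0 (14.7% of all genes) and 5 above 0 (23.4%) at an adjusted p under 0.05, of which 3 and 2 were among these 11. *Tdrd5* (chr1:156255296-156303664), a Tudor protein needed for transposon silencing and spermiogenesis, was at 85.2 and 88.7 TPM in Aundiff and 33.5 and 34.3 TPM in Adiff. The gap was many times the difference between replicates, and the log2 fold change was −1.33 (SE 0.13, limma adjusted p = 0.00158). *Stk31*, a Tudor protein with a kinase-like domain, was at −0.79 and *Mael* at −0.74 on the log2 scale (SE 0.15 and 0.12), while the nuage helicase gene *Tdrd9* was at 0.63 and the Tudor gene *Rnf17* at 0.57 (SE 0.14 and 0.15). *Ddx4* (MVH, the DEAD-box helicase that marks germ cells) was at 208 and 183 TPM in Aundiff and at 216 and 171 TPM in Adiff, with overlap. *Tdrd1*, *Tdrd3*, *Tdrd6*, *Tdrd7* and *Tdrd12* did not pass. Neither gene for transcription of pachytene piRNA precursors passed, nor did *Prmt5*, the methyltransferase that marks PIWI proteins for Tudor binding, while its partner gene *Wdr77* had a log2 fold change of 0.52 (SE 0.16, limma adjusted p = 0.0446). *Mybl1* was at 1.43 and 1.12 TPM and then 0.30 and 0.45 TPM, which did not overlap, but its log2 fold change of −0.73 did not pass (SE 0.28, limma adjusted p = 0.0865).

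Without regard to a test, 15 of 31 genes lay lower in both Adiff libraries than in both Aundiff libraries (28.7% of all genes tested) and 8 lay higher (43.4% of all). Median-of-ratios scaling moved the median log2 fold change of all genes from 0.15 to −0.002, and the count of genes below 0 among the 31 from 20 to 24, and over all genes it turned 1724 rises and 1430 falls into 1165 and 1748. The 6 that fell did so under that scaling too. The 12 spermatid markers summed to 1002 and 1059 TPM in Aundiff and 693 and 876 TPM in Adiff, with 11 or 12 of the 12 at 1 TPM or more in each library, and their part in these differences was not tested. An exact permutation test of 2 libraries against 2 cannot go below p = 0.333.

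**Figure D2:**
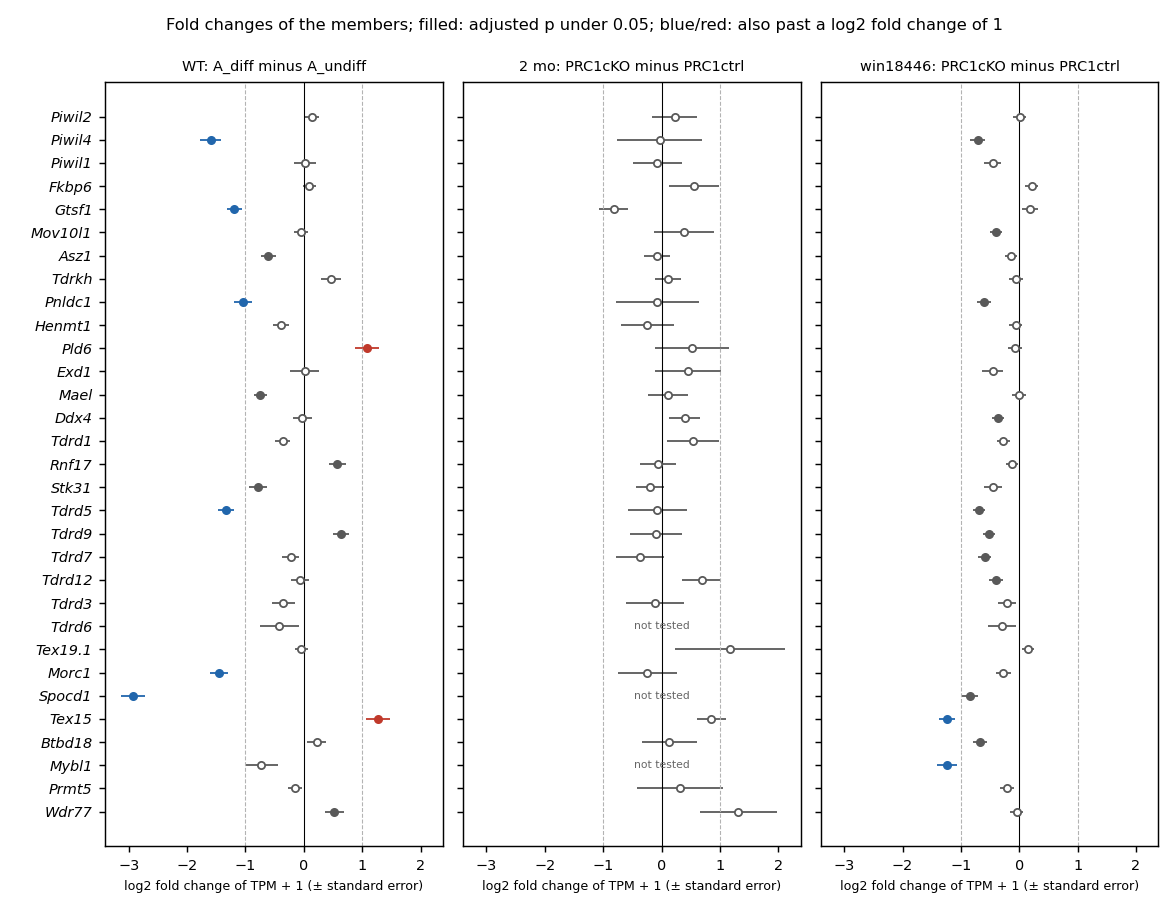
Log2 fold change of TPM + 1 with its standard error for the 31 genes in the comparison of WT Adiff with WT Aundiff and of PRC1cKO with PRC1ctrl at 2 mo and after win18446. Filled points have an adjusted p under 0.05 and coloured ones also pass a log2 fold change of 1: 6 below and 2 above 0 in WT, none at 2 mo, and *Tex15* and *Mybl1* below 0 after win18446.

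In Aundiff at 2 mo, none of the 31 genes was called between PRC1cKO and PRC1ctrl. Limma tested 28, since *Mybl1*, *Spocd1* and *Tdrd6* did not reach 1 TPM in 2 libraries. Of all 13953 genes tested, 1.94% fell and 0.222% rose by both thresholds. At an unadjusted p under 0.05 limma gave 2 of the 28 genes, where 14.2% of all genes reached that level. The median log2 fold change was 0.11 over the 28 and 0.22 over all genes tested. After median-of-ratios scaling it was −0.20 over the 28 and −0.034 over all, and it lay between −0.093 (without PRC1ctrl replicate 1) and 0.52 (without PRC1ctrl replicate 2) when a library was left out, so it had no stable direction. Between the replicates of a group the genes had a median SD of 0.45 on the log2 scale, against 0.12 in WT and 0.098 after win18446. The groups did not overlap for 5 genes, of which 3 lay higher in PRC1cKO (27.5% of all genes tested) and 2 lower (17.3%).

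*Tex15* was at 92.6 and 110 TPM in PRC1ctrl and 190 and 176 TPM in PRC1cKO, so both PRC1cKO libraries were higher, with a log2 fold change of 0.85 (SE 0.25, limma adjusted p = 0.184). *Gtsf1* was at 1295 and 924 TPM and then 677 and 566 TPM, so both PRC1cKO libraries were lower (log2 fold change −0.82, SE 0.24, limma adjusted p = 0.203). *Tdrd12*, a Tudor protein with a helicase domain that acts in secondary piRNA production, was at 28.9 and 43.0 TPM and then 57.8 and 56.8 TPM (log2 fold change 0.68, SE 0.33, limma adjusted p = 0.448). None of these 3 passed, although in each the groups were apart. *Ddx4* was at 179 and 254 TPM in PRC1ctrl and 269 and 294 TPM in PRC1cKO, without overlap (log2 fold change 0.40, SE 0.26, limma adjusted p = 0.569). The largest log2 fold changes belonged to *Wdr77*, at 18.1 and 57.7 TPM against 55.2 and 122 TPM, and to *Tex19.1*, at 7.37 and 29.9 TPM against 15.5 and 78.6 TPM. For both of these the groups overlapped and replicate 2 was several times replicate 1 under either label (log2 fold changes 1.31 and 1.17, SE 0.66 and 0.95, limma adjusted p = 0.457 and 0.638). Across all 31 genes, replicate 2 was above replicate 1 under both labels in 22 (49.6% of 19210 genes) and below in 3 (13.4%). The spermatid markers summed to 940 and 2376 TPM in PRC1ctrl and 60.7 and 52.6 TPM in PRC1cKO, where 2 of 12 reached 1 TPM, and the 6 markers of differentiating spermatogonia to 226 and 195 TPM and 533 and 513 TPM. The undifferentiated markers summed to 909 and 1189 TPM in PRC1ctrl and 420 and 511 TPM in PRC1cKO. Most of this was *Sall4* (517 and 704 TPM, then 266 and 314 TPM) and *Nanos3* (286 and 349 TPM, then 92.4 and 80.6 TPM). *Lin28a* and *Id4* were also lower without overlap. For *Etv5*, *Pou5f1*, *Gfra1*, *Ret*, *Neurog3*, *Nanos2* and *Zbtb16* the groups overlapped. The early meiotic markers summed to 591 and 546 TPM and 853 and 796 TPM. The pachytene markers summed to 209 and 471 TPM and 45.3 and 60.9 TPM. Of these, *Ccna1* went the other way, at 0.05 and 5.15 TPM and then 6.90 and 7.18 TPM, and *Clgn*, *Ybx2* and *Pdha2* overlapped. The Leydig cell markers summed to 1.04 and 1.21 TPM and 21.0 and 48.0 TPM. The part of all these cells in the values of the piRNA pathway genes was not tested.

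After win18446, *Tex15* and *Mybl1* fell in PRC1cKO Aundiff and no gene of the 31 rose. These were 2 of 31 that fell by both thresholds, where 10.9% of 16521 genes fell and 1.27% rose. At an adjusted p under 0.05 without a threshold on size, limma gave 12 of 31 below 0 (26.7% of all genes) and none above 0 (5.87%). The median log2 fold change was −0.29 over the 31 genes and −0.19 over all.

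*Tex15* was at 154 and 181 TPM in PRC1ctrl and 66.1 and 74.4 TPM in PRC1cKO. Both PRC1cKO libraries were far below both PRC1ctrl libraries, with a log2 fold change of −1.24 (SE 0.13, limma adjusted p = 0.00239), and it stood at −0.997 after median-of-ratios scaling, short of the threshold. *Mybl1* (chr1:9667415-9700209) was at 9.21 and 7.46 TPM in PRC1ctrl and 2.90 and 2.99 TPM in PRC1cKO, again without overlap (log2 fold change −1.24, SE 0.17, limma adjusted p = 0.00405). The other gene for transcription of pachytene precursors, *Btbd18*, a nuclear factor for elongation at those clusters, was at 72.7 and 84.3 TPM and then 48.4 and 49.0 TPM. It had a log2 fold change of −0.67 (SE 0.12, limma adjusted p = 0.00835), so both genes of this role lay below 0 with an adjusted p under 0.05 (26.7% of all genes). After median-of-ratios scaling *Btbd18* was at −0.43, and in a fit over all 12 libraries it did not pass (limma adjusted p = 0.158).

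*Spocd1*, *Piwil4* and *Tdrd5*, which had fallen from WT Aundiff to WT Adiff, were not called here. *Spocd1* was at 73.2 and 87.9 TPM in PRC1ctrl and 43.0 and 45.5 TPM in PRC1cKO (log2 fold change −0.84, SE 0.13, limma adjusted p = 0.00526). *Piwil4* was at 38.7 and 42.4 TPM and then 23.3 and 25.4 TPM (log2 fold change −0.71, SE 0.13, limma adjusted p = 0.00775). *Tdrd5* was at 126 and 125 TPM and then 79.1 and 75.9 TPM (log2 fold change −0.69, SE 0.10, limma adjusted p = 0.0049). In all 3 the PRC1cKO libraries were below the PRC1ctrl libraries without reaching a log2 fold change of 1. *Pnldc1* followed at −0.60, as did *Tdrd7*, a chromatoid body Tudor protein, at −0.60, *Tdrd9* at −0.52, *Tdrd12* at −0.41, *Mov10l1* at −0.40 and *Ddx4* at −0.36 on the log2 scale, each with an SE of 0.10 to 0.12. *Morc1* and *Gtsf1*, which had also fallen in WT Adiff, did not pass. *Morc1* was at −0.28 (SE 0.13, limma adjusted p = 0.141) and *Gtsf1* lay above 0, at 0.18 (SE 0.14, limma adjusted p = 0.372). In a fit over all 12 libraries *Spocd1* kept an adjusted p under 0.05 (limma adjusted p = 0.0485). *Piwil4*, *Tdrd5* and *Pnldc1* did not (limma adjusted p = 0.435, 0.209 and 0.540). Neither did *Tdrd7*, *Tdrd9*, *Tdrd12*, *Mov10l1* and *Ddx4*.

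Of 31 genes, 21 lay lower in both PRC1cKO libraries (49.3% of all genes tested) and 2 higher (20.1%). All 11 genes of the group of nuage helicases, Tudor proteins and scaffolds had a log2 fold change below 0. For 5 of them the adjusted p was under 0.05 (26.7% of all genes). Most of all genes tested lay below 0 as well, with a median of −0.19. A scaling to median ratios moved the median of all genes from −0.19 to 0.028 and left 18 of 31 genes below 0 in place of 27. Under that scaling 8 of 31 lay below 0 and 2 above 0 at an adjusted p under 0.05, and over all genes 373 rose and 1246 fell, in place of 210 and 1807. The spermatid markers summed to 166 and 147 TPM in PRC1ctrl and 18.4 and 18.4 TPM in PRC1cKO, where 1 of 12 reached 1 TPM. The 9 markers of pachytene spermatocytes summed to 78.5 and 75.7 TPM and 52.7 and 57.6 TPM. Of these, *Ccna1* went the other way, at 2.14 and 2.83 TPM and then 5.26 and 4.62 TPM, and *Pdha2* and *Spata16* overlapped. The 8 early meiotic markers summed to 469 and 500 TPM and 534 and 468 TPM. The 11 markers of undifferentiated spermatogonia summed to 987 and 1100 TPM and 748 and 851 TPM, and the 6 markers of differentiating spermatogonia to 186 and 223 TPM and 331 and 375 TPM. Against the sum of its list, *Gfra1* was at 14.7 and 14.7 TPM and then 15.7 and 16.1 TPM. *Stra8* also went against its list, at 10.7 and 12.4 TPM and then 7.91 and 7.9 TPM. For *Ret*, *Id4* and *Nanos2* the groups overlapped. The 6 Leydig cell markers summed to 397 and 82.1 TPM in PRC1ctrl and 73.2 and 20.6 TPM in PRC1cKO, and the 9 Sertoli cell markers to 220 and 136 TPM and 237 and 145 TPM. The part of all these cells in the differences was not tested.

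**Figure D3:**
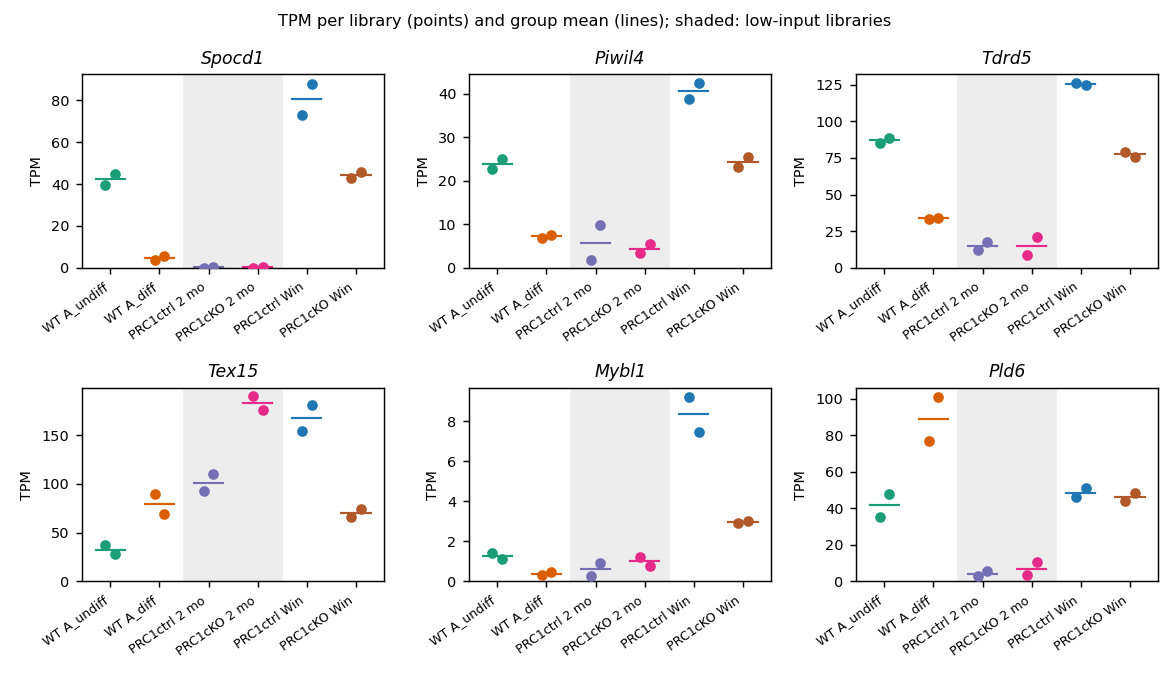
TPM (linear axes from 0) of *Spocd1*, *Piwil4*, *Tdrd5*, *Tex15*, *Mybl1* and *Pld6* in each of the 12 libraries, with lines at group means and shading over the low-input libraries. *Tex15* lies higher in PRC1cKO at 2 mo and lower in PRC1cKO after win18446, and *Spocd1* is under 0.5 TPM in all 4 low-input libraries.

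The difference between PRC1cKO and PRC1ctrl was itself compared between untreated and treated mice, over the 8 libraries of PRC1 mice. Of 31 genes, *Tex15* alone was called, with a difference of log2 fold changes of −2.09 (SE 0.26, limma adjusted p = 0.0105), where 4.98% of 18354 genes were called below 0 and 2.76% above (5.03% below 0 at any size). After median-of-ratios scaling 866 genes were called above 0 and 293 below, in place of 506 and 914. It was higher in PRC1cKO in 2 of 2 libraries at 2 mo and lower in 2 of 2 after treatment. The call was lost after median-of-ratios scaling (−1.38, limma adjusted p = 0.0851) and without each of the 4 libraries after win18446 (limma adjusted p = 0.053 to 0.0811). None was called above 0. At an unadjusted p under 0.05 there were 5 of 31 (24.7% of all genes), of which *Gtsf1* alone was above 0 (1.00, SE 0.31, limma adjusted p = 0.103). The other 3 were *Mybl1* (−1.57, SE 0.38, limma adjusted p = 0.0544), *Tdrd12* and *Ddx4*. At 2 mo *Mybl1* did not reach 1 TPM in 2 libraries and was not tested there. Its value here came mostly from its log2 fold change of −1.24 after win18446, and cannot show whether the effect of the label differed at 2 mo. Without PRC1ctrl replicate 2 at 2 mo, 5 genes were called, *Tex15*, *Mybl1*, *Tdrd12*, *Ddx4* and *Gtsf1*. Treatment and library kit changed together, and cannot be told apart.

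The levels of many genes differed between the low-input libraries and the rest. In 14 of 31 genes all 4 low-input libraries lay below all 8 TruSeq libraries (34.3% of 19210 genes) and in 5 they lay above (10.8%). The median difference in mean log2(TPM + 1) was −1.19 over the 31 genes and −0.58 over all. *Spocd1* was at 0.05 to 0.47 TPM in the low-input libraries and at 3.98 to 87.9 TPM in the others. *Piwil2* was at 28.6 to 49.5 TPM and at 325 to 429 TPM, and *Tex19.1* at 7.37 to 78.6 TPM and at 335 to 401 TPM. Of these 3 genes only *Spocd1* was near 0 in the low-input libraries. Among the 11 undifferentiated markers, 9 also lay lower in all 4 low-input libraries than in both WT Aundiff libraries, and together these summed to 61.9 to 136 TPM against 779 to 871 TPM. Of the other 2 markers, *Sall4* lay higher in all 4 low-input libraries, at 266 to 704 TPM against 135 and 171 TPM. *Nanos3* overlapped, at 286 and 349 TPM in PRC1ctrl and 92.4 and 80.6 TPM in PRC1cKO, against 148 and 159 TPM in WT Aundiff. In the other direction, *Gtsf1* was at 566 to 1295 TPM and at 88.5 to 221 TPM, *Rnf17* at 510 to 878 TPM and at 106 to 186 TPM, and *Stk31* at 390 to 555 TPM and at 50.8 to 162 TPM. *Asz1* and *Tdrkh* also lay above. Genotype, strain, treatment, cell number and kit differ between these sets of libraries, and only the PRC1ctrl and PRC1cKO genotypes are common to both. The TruSeq set also holds WT Adiff, while all 4 low-input libraries are Aundiff.

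The GC content of the longest transcript was 44.9% to 56.4% in the 14 genes that lay below (median 49.8%) and 36.3% to 47.4% in the 5 that lay above. Across the 31 genes, Spearman's rho between GC content and the difference was −0.71, and across 19179 genes with a transcript it was −0.51. Transcript length had a rho of 0.056 over the 31 genes and −0.33 over all. Genes are not independent replicates, all points share the same 12 libraries, and the part of GC content was not tested.

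**Figure D4:**
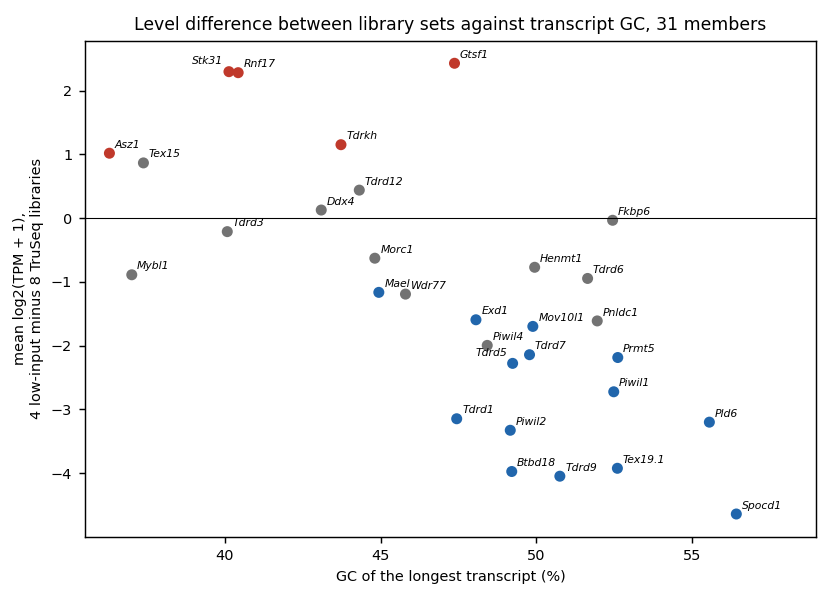
Difference in mean log2(TPM + 1) between the 4 low-input and the 8 TruSeq libraries against the GC content of the longest transcript in percent, with 1 point per gene. Blue points are the 14 genes whose low-input libraries all lay below, red points the 5 whose low-input libraries all lay above, and grey points the 12 that overlapped, with GC-rich *Spocd1* at the bottom and *Asz1*, at 36.3% GC, above 0.

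Further genes of the pathway, cofactors of its enzymes and partners in RNA decay and DNA methylation were taken as a list of 32, of which 31 were in the table. In WT, limma tested 30, and 2 fell and 2 rose in Adiff (9.24% and 11.1% of all genes). *Nanos2*, an RNA-binding protein of stem cells that is also 1 of the 11 undifferentiated markers, was at 10.8 and 11.7 TPM in Aundiff and 0.00 and 0.10 TPM in Adiff (log2 fold change −3.54, SE 0.25, limma adjusted p = 0.000866). *Dnmt3l*, the cofactor of de novo DNA methylation in prospermatogonia, was at 6.57 and 10.7 TPM and then 1.96 and 1.42 TPM (log2 fold change −1.81, SE 0.30, limma adjusted p = 0.0063). The methyltransferase gene *Dnmt3b* was at 52.5 and 58.7 TPM and then 151 and 163 TPM (log2 fold change 1.48, SE 0.13, limma adjusted p = 0.00129). *Ago2*, the slicer of the microRNA pathway, was at 2.17 and 1.65 TPM and then 8.60 and 5.97 TPM (log2 fold change 1.497, SE 0.27, limma adjusted p = 0.00867). In none of the 4 did the groups overlap.

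At 2 mo, 1 of 28 tested genes of this list fell in PRC1cKO (1.94% of all genes) and none rose (0.222%). *Gtsf2*, a paralog of *Gtsf1*, was at 7.97 and 21.1 TPM in PRC1ctrl and 0.00 and 0.12 TPM in PRC1cKO (log2 fold change −3.73, SE 0.55, limma adjusted p = 0.0431). Its call was lost without PRC1cKO replicate 1 or 2 (limma adjusted p = 0.0609 and 0.0646) and without a filter on low values (limma adjusted p = 0.209). After win18446, 2 of 29 fell (10.9% of all genes) and none rose (1.27%). *Gtsf1l*, another paralog, was at 3.20 and 2.77 TPM in PRC1ctrl and listed at 0.00 TPM in both PRC1cKO libraries (log2 fold change −1.99, SE 0.17, limma adjusted p = 0.00177). Both *Gtsf2* at 2 mo and *Gtsf1l* here passed the filter only through PRC1ctrl. For *Gtsf1l* no alternative settings are reported. *Xrn1*, the 5′ exonuclease of RNA decay bodies, was at 34.9 and 37.3 TPM and then 14.7 and 17.8 TPM (log2 fold change −1.11, SE 0.14, limma adjusted p = 0.00323), and it stood at −0.98 without PRC1cKO replicate 1 and −0.88 after median-of-ratios scaling, both short of the threshold. The spermatid markers were lower in the same PRC1cKO libraries, as given above, and their part in the values of *Gtsf2* and *Gtsf1l* was not tested.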

How the data were processed

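RNA-seq of sorted spermatogonia was deposited as 1 table of TPM for 55385 genes in 12 libraries, 2 in each of 6 groups, and all columns could be assigned by their labels. According to the submitters' processing notes, the authors used Trim Galore 0.6.6, HISAT2 2.2.1, SAMtools 1.9, HTSeq 1.6.0, DESeq2 1.28.1 and RSEM 1.3.3 with GRCm38 (mm10). TPM was computed with RSEM by the authors, and their differential expression came from read counts, which were not used here. Depth is unknown, and because every library has the same TPM total, the genes of a library are not free to move independently.

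The 31 genes were selected by gene name. Their number, and the lists of markers, of further pathway genes and of motifs, were chosen with earlier results of these data known. All 31 are described by role, with values in every library for those called in a comparison and counts or ranges for most others. Library values of further genes of the 31 are given where groups were apart, replicates differed widely, or a level served as a contrast, and these were chosen after their values were seen. Of the further pathway genes, at most the 5 called with the largest changes are named per comparison. Values were transformed to log2(TPM + 1) and fitted with limma 3.58.1 in R 4.3.3 with trend and robust moderation, on genes at 1 TPM or more in at least 2 libraries compared. Adjustment followed Benjamini and Hochberg across the genes tested. Calls needed an adjusted p under 0.05 together with a log2 fold change beyond 1 in either direction. Fold changes of genes near 1 TPM are compressed by the added 1. The procedure was tested on simulated data. The study's methods call the 2 libraries of a group independent biological replicates, and no pair held identical values.

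Of 55144 identifiers found in gencode vM21, 54814 had the same coordinates, including 30 of the 31 genes, the exception being *Henmt1*. All 31 are protein coding. Promoters came from RefSeq (GRCm38.p6), and 8 of the 31 genes had no entry. Transcript GC and exon overlaps were taken from the vM21 annotation. Tables and figures were made with Python 3.11.15, pandas 2.3.3, numpy 2.4.6, scipy 1.17.1 and matplotlib 3.10.9. Alternatives were a pseudocount of 0.1, no filter, a filter at mean TPM 5, scaling to median ratios, limma without trend and robust options, a fit over all 12 libraries, a replicate block, and omission of single libraries. The same alternatives for 6 named genes outside the 31 were added after seeing the data.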

Additional observations from a re-analysis of the deposited data

Results flagged for a closer look

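The difference between libraries labelled PRC1cKO and PRC1ctrl went in opposite directions at 2 mo and after win18446 for 3 of the 31 genes, with no overlap between the groups in either case. The same held for 11.7% of the 18354 genes tested. For *Tex15* both PRC1cKO libraries were higher at 2 mo and lower after treatment, and the difference of log2 fold changes was −2.09 (SE 0.26, limma adjusted p = 0.0105). *Tdrd12* followed the same order, with 28.9 and 43.0 against 57.8 and 56.8 TPM at 2 mo and 43.2 and 39.4 against 30.9 and 30.9 TPM after treatment, and its difference of log2 fold changes was −1.09 (SE 0.34, limma adjusted p = 0.104). *Ddx4*, at 179 and 254 against 269 and 294 TPM and then 307 and 284 against 224 and 235 TPM, had a difference of −0.76 (SE 0.27, limma adjusted p = 0.15). Only *Tex15* passed the test of the difference. Its call was lost after median-of-ratios scaling (−1.38, limma adjusted p = 0.0851) and whenever a treated library was left out. Untreated and treated libraries were made with different kits and numbers of cells, and these cannot be told apart from the treatment.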

How the results depend on the processing

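Counts and medians over the 31 genes were recomputed under each alternative, and no called gene changed its sign, while the median at 2 mo did (−0.20 after median-of-ratios scaling, −0.093 to 0.52 when each library was left out). In WT, the number that rose was 1 in place of 2 after median-of-ratios scaling and in the fit over all 12 libraries, and 1 to 2 when each library was left out (1 without Aundiff replicate 1 or Adiff replicate 2), and the number that fell stayed at 5 to 6. The median log2 fold change was −0.33 after median-of-ratios scaling. At 2 mo, adding the replicate number as a block called 2 genes higher in place of 0 (*Wdr77*, log2 fold change 1.31, limma adjusted p = 0.000837, and *Tex19.1*, 1.17, limma adjusted p = 0.00476), and it called 1074 genes of all higher and 1098 lower, against 31 and 270 without it. Deviations of same-numbered libraries correlated at 0.16 in WT, 0.38 at 2 mo and 0.12 after win18446 over all genes, and at 0.33, 0.71 and 0.18 over the genes tested among the 31. Nothing in the labels pairs these libraries, and 2 pairs are too few to establish a pairing. Counted at any size of change, the block raised the genes at an adjusted p under 0.05 from 14 to 17 in WT, from 0 to 5 at 2 mo (with *Fkbp6*, *Gtsf1* and *Tex15*) and from 12 to 15 after win18446, and it moved no other count by both thresholds. After win18446, median-of-ratios scaling left 1 gene called lower in place of 2 and a median of −0.12, and the median ranged from −0.40 (without PRC1ctrl replicate 2) to −0.27 when each library was left out. For the difference between treated and untreated mice, the count was 0 after median-of-ratios scaling and 0 to 5 when each library was left out. Whole-table counts at 2 mo were 0 higher and 0 lower without a filter and 84 and 833 after median-of-ratios scaling. *Gtsf2* at 2 mo lost its call in 4 of 9 alternatives and *Xrn1* after win18446 in 2 of 11. The causes were not tested. A library left alone in its group was assumed to vary like the others.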
